A study of Homo sapiens with 6 samples.

Results

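S100 proteins are small proteins of the EF-hand class, most of them calcium sensors. Of this family 9 genes (S100A4, S100A6, S100A8, S100A9, S100A10, S100A11, S100A12, S100A13 and S100P) were followed in U937, an established human line of monocytic character. They were chosen by symbol, through the Ensembl identifier of each table row in GENCODE v29. Of the 9 genes, 8 had a row among the 18798 genes of the table, and all 8 were among the 14797 genes with enough counts to be tested. S100A12 had no row and was not analysed here; the smallest row total over the 6 libraries was 10 counts.

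Total RNA was sequenced from 3 Control lines, each transduced with control plasmids (genotype control), and from 3 ΔNSPs clones, depleted together of PRTN3, ELANE and CTSG (genotype deltaNSPs). These encode, in reverse order, cathepsin G, neutrophil elastase and proteinase 3, the serine proteases of azurophil granules. All 6 cultures were genetically modified U937 cells under geneticin selection at 500 ug/ml, the labels name no further treatment, and each clone or line gave 1 library. A clone carries whatever its founder cell carried, so a difference seen in 1 clone cannot be told apart from a property of that founder.

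Between 11476619 and 13782854 counts were assigned to genes per library, and 3 counts corresponded to 0.214 to 0.260 CPM (counts scaled to library size, with TMM factors). The targeted genes were lower in every clone than in every Control line: CTSG was at 45.2 to 136 CPM in the clones and at 1895 to 2752 CPM in the Control lines. ELANE was at 1.89 to 41.8 CPM against 969.6 to 1325 CPM, and PRTN3 at 0.855 to 63.2 CPM against 147 to 539 CPM; the edgeR adjusted p was 0.0215 for CTSG, 0.145 for ELANE and 0.217 for PRTN3. On the first principal component of the tested genes, which held 50.0% of the variance, ΔNSPs clones 2 and 3 (50.4 and 44.8) stood apart from clone 1 (-20.0) and the Control lines (-35.7 to -4.40). P-values measure the spread between these lines and clones only. Of 9 myeloid markers all had a row, with summed levels of 668 to 715 CPM in the Control lines and of 534, 977 and 787 CPM in clones 1, 2 and 3. Of 6 epithelial markers, a lineage in which several S100 genes are also active, 2 had a row, and they summed to at most 0.984 CPM. Of 4 T cell markers 1 had a row (at most 0.421 CPM), and the 3 endothelial and 3 platelet markers had no row. Transcripts outside the monocytic set were also counted, with HBB at 73.9 to 133 CPM, CD79B at 0 to 51.9 CPM and the 3 fibroblast markers summing to 0.590 to 7.87 CPM, and for all of these the groups overlapped.

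S100 proteins act mostly as dimers. On binding calcium most of them expose a surface that docks onto target proteins, among them annexins, myosin and cytoskeletal regulators. S100A8, S100A9 and S100A12 are the calgranulins, abundant in the cytosol of neutrophils and monocytes, where S100A8 and S100A9 pair as calprotectin; released from cells they act as alarmins through TLR4 and the receptor RAGE. In myeloid cells the calgranulin genes are switched on as maturation proceeds, and factors of the C/EBP family take part in that control. Most S100 genes lie in a cluster on chromosome 1, while S100P lies on chromosome 4.

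The family spanned a wide range of levels. Per length, as RPKM over the union of annotated exons, S100A11 had the highest mean over the 6 libraries, 380.2 ± 34.5 RPKM (SD, n = 6), followed by S100A4 at 305 ± 66.8 RPKM and S100A6 at 260.5 ± 20.3 RPKM. More than 98% of tested genes had a lower RPKM than each of these 3. S100P came next at 128 ± 27.4 RPKM, then S100A9 at 31.1 ± 39.9 RPKM and S100A10 at 22.5 ± 6.70 RPKM. S100A8 (1.95 ± 0.889 RPKM) and S100A13 (0.535 ± 0.221 RPKM) were near the bottom, with 25.9% and 8.86% of tested genes below them. The ranges of neighbours in this order overlapped for S100A11 and S100A4, S100A4 and S100A6, S100P and S100A9, and S100A9 and S100A10. The steps from S100A6 to S100P, from S100A10 to S100A8 and from S100A8 to S100A13 had no overlap. S100A11 lay above S100A4 in 5 of the 6 libraries. The place of S100A9 depended on the library: it lay below S100A10 in 4 libraries and above it in ΔNSPs clones 2 and 3.

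S100A9 (ENSG00000163220; chromosome 1, 153357854 to 153361027, plus strand, GRCh38) was the member that varied most between libraries. It was at 3.66, 5.07 and 5.37 CPM in Control lines 1, 2 and 3, from 43, 70 and 62 counts. In ΔNSPs clones 1, 2 and 3 it was at 8.20, 62.7 and 22.7 CPM, from 115, 829 and 269 counts. Every clone therefore lay above every Control line, clone 1 by little and clone 2 by far: relative to the Control mean the clones stood at 1.74-fold, 13.3-fold and 4.82-fold. The exact Poisson 95% interval of clone 1 (6.77 to 9.84 CPM) met that of Control line 3 (4.12 to 6.89 CPM), while the intervals of clones 2 and 3 lay above all others; these intervals, like the floor of 3 counts, cover counting error only. The group means were 31.2 ± 28.3 CPM in ΔNSPs and 4.70 ± 0.914 CPM in Control (SD, n = 3), a log2 fold change of 2.73 (± 0.66 SE; adjusted p = 0.171 in edgeR), which did not pass a threshold of 0.05 after adjustment over all tested genes. It passed in DESeq2 (adjusted p = 0.0262) and, in edgeR, without clone 1 (log2 fold change 3.17, adjusted p = 0.0127), and it did not in limma voom (adjusted p = 0.0881). Without clone 2 the log2 fold change was 1.71 (edgeR adjusted p = 0.286). Clones 2 and 3 were also the libraries with the highest summed myeloid markers and those that stood apart on the first principal component. The part of either in the S100A9 difference was not tested. The sum does not stand for every marker. In clone 3 CD4 (253 CPM), CD33 (59.3 CPM) and FCGR1A (4.97 CPM) lay below every Control line. LYZ, PTPRC, SPI1, ITGAM and CSF1R lay above them all there, and CD68 among them. In clone 1 CD4 was at 125 CPM, against 257 to 291 CPM in Control. In bulk RNA, more cells with the transcript and more transcript per cell cannot be told apart. Control line 1 had the lowest S100A9 level of the 6 libraries.

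S100A8 (ENSG00000143546; chromosome 1, 153390032 to 153391188, minus strand), the partner of S100A9 in calprotectin, was low in all libraries. It was at 1.02, 1.96 and 1.65 CPM in Control lines 1 to 3 and at 1.497, 3.63 and 2.02 CPM in clones 1 to 3, from 12 to 48 counts per library. The groups overlapped, since clone 1 lay below Control lines 2 and 3. Clone 2 was the highest library for S100A8 as it was for S100A9, but its interval (2.68 to 4.82 CPM) met that of Control line 2 (1.29 to 2.85 CPM). The log2 fold change was 0.62 (± 0.43 SE; adjusted p = 0.469 in edgeR), and DESeq2 gave no adjusted p at this level.

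The balance of the calprotectin pair is no separate result, since its numerator, S100A9, did not overlap between the groups by itself. Per length, S100A9 exceeded S100A8 6.25-fold, 4.52-fold and 5.69-fold in Control lines 1 to 3. In clones 1, 2 and 3 the ratio was 9.55, 30.1 and 19.5. All 3 clones lay above the highest Control line, with no test made of the ratio, whose denominator rests on few counts.

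The windows around the start sites of S100A9, S100A8 and S100P are shown because S100A9 and S100P were the members whose groups did not overlap, and S100A8 is the partner of S100A9. Each runs from 250 bases before to 50 after the start site, as RefSeq gives it for GRCh38.p14, 5′ to 3′ on the gene's strand. For S100A8, which has 3 such windows, the window with a TATA box 29 bases before the start is given. Capitals mark matches to TTNNGNAA (a C/EBP core, searched on both strands, so also TTNCNNAA) and to TATAAA (or TTTATA).
S100A9, chr1:153357604-153357903, plus strand: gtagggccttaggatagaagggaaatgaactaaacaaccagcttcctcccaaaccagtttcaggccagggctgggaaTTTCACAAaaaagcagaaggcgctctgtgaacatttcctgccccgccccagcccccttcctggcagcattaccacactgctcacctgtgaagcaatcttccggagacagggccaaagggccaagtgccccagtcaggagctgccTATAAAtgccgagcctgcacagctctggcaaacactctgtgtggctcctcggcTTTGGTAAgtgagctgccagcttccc
S100A8, chr1:153391024-153391323, minus strand: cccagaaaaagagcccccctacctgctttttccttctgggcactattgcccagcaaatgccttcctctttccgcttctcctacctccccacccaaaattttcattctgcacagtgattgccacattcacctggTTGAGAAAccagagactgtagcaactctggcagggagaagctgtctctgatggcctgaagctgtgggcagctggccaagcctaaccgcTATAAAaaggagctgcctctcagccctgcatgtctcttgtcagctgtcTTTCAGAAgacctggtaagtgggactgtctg
S100P, chr4:6693628-6693927, plus strand: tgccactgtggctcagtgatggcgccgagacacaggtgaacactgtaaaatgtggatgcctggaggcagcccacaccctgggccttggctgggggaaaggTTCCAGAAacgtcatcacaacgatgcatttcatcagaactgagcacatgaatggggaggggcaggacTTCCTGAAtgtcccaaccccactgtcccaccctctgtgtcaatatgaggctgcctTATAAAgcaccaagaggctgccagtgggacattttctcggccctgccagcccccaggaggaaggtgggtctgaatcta
S100A9 has a C/EBP match that starts 173 bases before the start site (TTTCACAA) and another within the first 50 bases (TTTGGTAA). In S100A8 a match starts 117 bases before (TTGAGAAA) and another after the start (TTTCAGAA). In S100P matches start 150 and 83 bases before (TTCCAGAA and TTCCTGAA). The windows of S100A9 and S100P hold a TATA box, 29 and 28 bases before the start. The S100A8 window was picked for its TATA box, and the S100A8 window nearest the GENCODE start holds none. Taking for each gene the window nearest its GENCODE start, 6 of the 9 members hold a C/EBP match, against 36.8% of all 35116 windows in the table. By the same count, in which another window stands for S100A8, a TATA box is held by S100A4, S100A9, S100A12 and S100P (11.5% of all windows), the PU.1 core GAGGAAG or CTTCCTC by S100A8, S100A9 and S100P (13.6%), and the AP-1 core TGANTCA by S100A12 (7.71%). No match overlapped another in the windows printed. In the windows nearest the GENCODE start, S100A10 and S100A13 hold none of the 4 motifs, though other windows of S100A13 hold a TATA box or a C/EBP match. The member counts take 1 window per gene, while the shares count every window of 27305 genes, so the 2 are not alike. The nearest window starts 10903 bases from the GENCODE start for S100A11, 4330 for S100A4 and 3001 for S100A13. All of these are matches of letters and not sites shown to be bound.

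**Figure D1:**
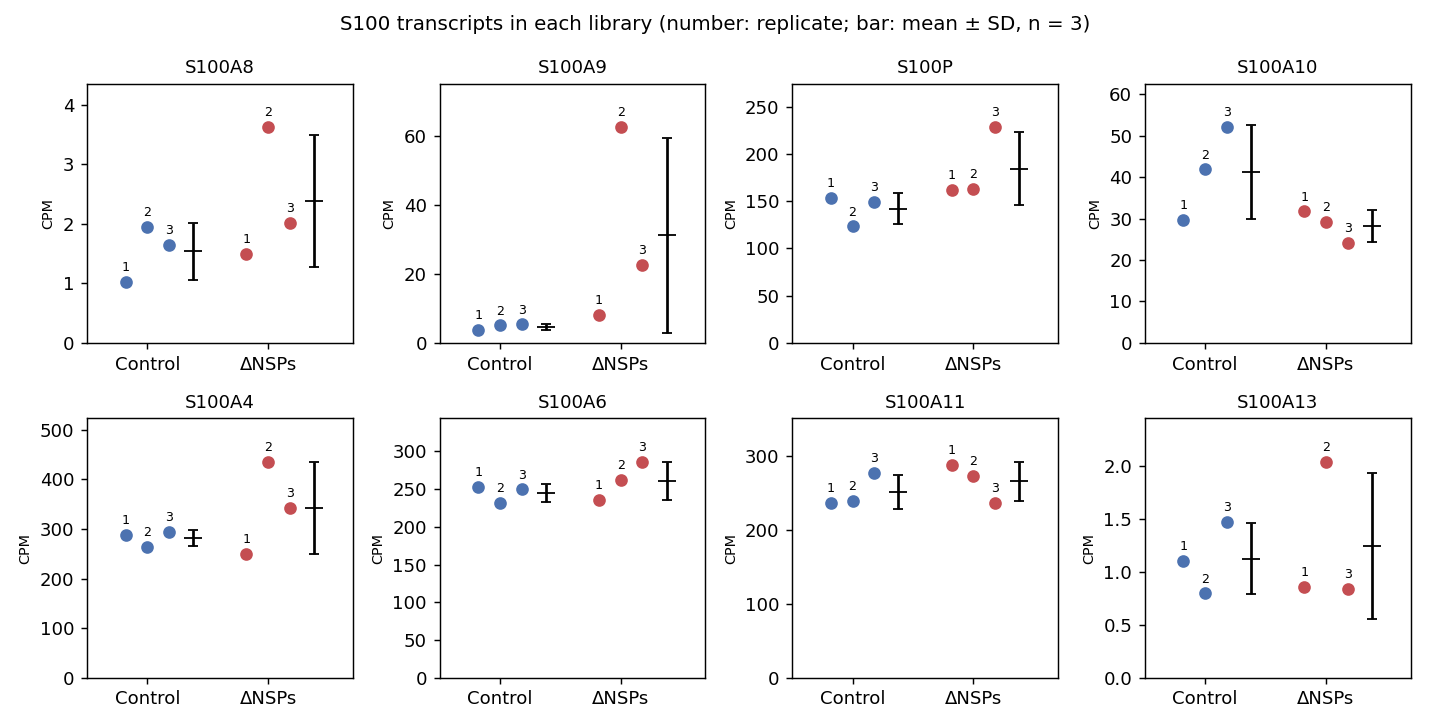
Each panel plots the level of 1 S100 transcript (y axis, CPM, linear from 0) in the 3 Control lines (blue) and the 3 ΔNSPs clones (red), numbered by replicate, with the group mean ± SD in black. S100A9 is at 3.66 to 5.37 CPM in the Control lines and at 8.20 to 62.7 CPM in the clones, and S100P is at 162 CPM or more in every clone against 154 CPM at most in the Control lines, while the groups of the other 6 overlap.

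S100P (ENSG00000163993; chromosome 4, 6693069 to 6697170, plus strand), a member known from placenta and epithelial tumours that binds ezrin and IQGAP1, was well expressed in all libraries. It was at 154, 123 and 149 CPM in Control lines 1 to 3 and at 162, 163 and 229 CPM in clones 1 to 3. The groups did not overlap, but clones 1 and 2 were close to Control line 1, and clone 3 stood above the rest. The log2 fold change was 0.38 (± 0.16 SE; adjusted p = 0.277 in edgeR; DESeq2 adjusted p = 0.228). Without clone 3 it was 0.20 (edgeR adjusted p = 0.519).

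S100A10 (ENSG00000197747; chromosome 1, 151982915 to 151994390, minus strand), also called p11, joins annexin A2 in a complex that binds plasminogen at the cell surface, and was the 1 member with a lower mean in the clones. It was at 29.7, 41.9 and 52.2 CPM in Control lines 1 to 3 and at 31.7, 29.1 and 24.1 CPM in clones 1 to 3. Control line 1 lay among the clones, so the groups overlapped, and the spread was wider in Control (SD 11.2 CPM around 41.2 CPM) than in ΔNSPs (SD 3.88 CPM around 28.3 CPM). The log2 fold change was -0.54 (± 0.21 SE; adjusted p = 0.244 in edgeR; DESeq2 adjusted p = 0.151). Without Control line 3 it was -0.34 and without Control line 1 it was -0.73. ANXA2, the partner of S100A10, had a log2 fold change of 0.17 (± 0.20 SE; adjusted p = 0.679 in edgeR).

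S100A11 (ENSG00000163191; chromosome 1, 152032506 to 152047907, minus strand), which binds annexin A1, was among the steadiest members. It was at 237, 239.7 and 277 CPM in Control lines 1 to 3 and at 288, 273 and 236 CPM in clones 1 to 3, with clone 3 at the level of Control line 1. The log2 fold change was 0.08 (± 0.12 SE; adjusted p = 0.737 in edgeR). S100A6 (ENSG00000197956; chromosome 1, 153534599 to 153536244, minus strand), or calcyclin, was as even, at 253, 232 and 249.7 CPM in Control and 235, 262 and 286 CPM in the clones. Its log2 fold change was 0.09 (± 0.11 SE; adjusted p = 0.669 in edgeR). Between the lowest and the highest of the 6 libraries, log2 CPM ranged by 0.28 for S100A11 and 0.30 for S100A6, against 4.04 for S100A9.

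S100A4 (ENSG00000196154; chromosome 1, 153543613 to 153550136, minus strand), also known as metastasin, binds the non-muscle myosin heavy chain MYH9. It was at 288, 263 and 294 CPM in Control lines 1 to 3 and at 249, 436 and 342 CPM in clones 1 to 3. Clones 2 and 3 were above every Control line and clone 1 was below them all. The clones thus took the same order as for S100A8 and S100A9, on a much smaller scale. How many of all tested genes take this order was not counted. The log2 fold change was 0.28 (± 0.19 SE; adjusted p = 0.457 in edgeR), 0.46 without clone 1 (adjusted p = 0.0764) and 0.07 without clone 2 (adjusted p = 0.863).

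S100A13 (ENSG00000189171; chromosome 1, 153618787 to 153631360, minus strand), which takes part in the release of FGF1 and interleukin 1 alpha, was at 1.11, 0.797 and 1.47 CPM in Control lines 1 to 3 and at 0.855, 2.04 and 0.842 CPM in clones 1 to 3, from 10 to 27 counts. Clone 2 was again the highest library, but its interval (1.35 to 2.97 CPM) met that of every other library. The log2 fold change was 0.16 (± 0.48 SE; adjusted p = 0.887 in edgeR), and it was -0.39 without clone 2. Its counts are uncertain: its annotated span overlaps that of S100A1, on the opposite strand, over 3435 bases, and 25.7% of the stretches of 50 bases in its transcripts also occur in transcripts of other genes. AL162258.1 overlaps it on the same strand over 5029 bases and holds 18.8% of those stretches, and S100A1 holds 6.89%. The span of S100A4 overlaps that of S100A3 on the same strand over 2044 bases. That of S100A6 overlaps BX470102.1 on the opposite strand over 517 bases. Transcripts of S100A4 and S100A6 share no stretch of 50 bases with those of any other gene, these neighbours included. Splitting of their counts over shorter stretches was not tested, and neither neighbour had enough counts to be tested. S100A11 overlaps AL450992.1 on the opposite strand over 10269 bases. For S100A11 the share of stretches found elsewhere was 1.90% and for the other 7 members, S100A12 included, it was 0%.

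Calls among the members are given here beside the shares over the whole table, and each count rests on at most 2 genes. In edgeR 0 of the 8 tested members passed an adjusted p of 0.05 as higher and 0 as lower, where 0.00676% and 0.0135% of all tested genes did. An unadjusted p under 0.05 was reached by S100A9 and S100P as higher and by S100A10 as lower, that is by 2 and 1 of 8, against 9.23% and 8.6% of all genes. In DESeq2 1 of the 6 members with an adjusted p passed as higher, S100A9, and 0 as lower, against 1.91% and 2.07% of genes. In limma voom 0 of 8 passed either way, against 0.00676% in each direction. Without clone 1 edgeR called S100A9 higher and 0 members lower, against 3.04% and 3.13% of genes. Every clone was above every Control line for 2 of the 8 and below for 0, against 12.2% and 11.7% of all tested genes. The median log2 fold change of the 8 members was 0.22, with 7 positive and 1 negative, against 0.0023 over all tested genes.

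**Figure D2:**
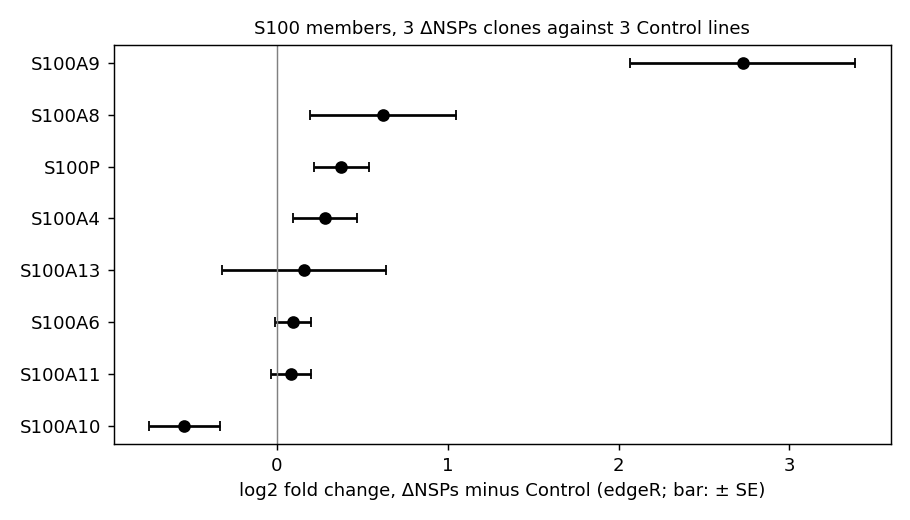
Points give the log2 fold change of each S100 member, ΔNSPs minus Control (x axis), with bars of ± 1 SE from edgeR, and members are ordered by size (y axis). S100A9 stands apart at 2.73, S100A10 is the 1 member below 0, at -0.54, and the other 6 lie between 0.08 and 0.62.

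Transcription factors that act on the calgranulin genes or in myeloid maturation came next. Of 14 such genes 13 were tested; 0 passed in edgeR, CEBPB, CEBPE and IRF7 reached an unadjusted p under 0.05 as higher and 0 as lower, and CEBPB was the 1 DESeq2 call, as higher. Over all tested genes 9.23% reached that unadjusted p as higher and 8.6% as lower, and DESeq2 called 1.91% higher and 2.07% lower. CEBPB, which encodes C/EBP beta, was at 64.3, 74.9 and 75.7 CPM in Control lines 1 to 3 and at 81.4, 213 and 174 CPM in clones 1 to 3. The 6 libraries took the same order as for S100A9, with clone 1 just above the Control lines and clone 2 highest. How many of all tested genes take this order was not counted. Its log2 fold change was 1.12 (± 0.31 SE; adjusted p = 0.178 in edgeR; DESeq2 adjusted p = 0.00637). CEBPE, a factor of late granulocyte maturation, was at 21.4 to 32.3 CPM in the clones against 15.9 to 20.8 CPM in Control (edgeR adjusted p = 0.217). The 3 most abundant of the list overlapped between the groups: MYC (370 to 620.4 CPM in the clones, 457 to 560.4 CPM in Control), CEBPA (319 to 402 CPM, 339 to 410.4 CPM) and ATF4 (326 to 409 CPM, 255 to 364 CPM). The median log2 fold change of the list was 0.20.

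Genes of monocyte and neutrophil maturation that are often expressed with the calgranulins had fold changes of either sign. Of 17 genes 12 had a row and 8 were tested, with 0 edgeR calls and a median log2 fold change of 0.42. An unadjusted p under 0.05 was reached by 3 as higher (FCN1, ITGAM and FPR2) and by 2 as lower (MMP9 and CHI3L1), against 9.23% and 8.6% of all tested genes. Of all genes with a DESeq2 adjusted p, 1.91% were called higher and 2.07% lower. FCN1, which encodes ficolin-1, was the 1 DESeq2 call, as higher (adjusted p = 0.0203), at 23.2, 42.4 and 64.3 CPM in clones 1 to 3 against 14.6 to 23.9 CPM in Control (log2 difference 1.14 ± 0.35 SE; adjusted p = 0.189 in edgeR). LYZ, lysozyme, was at 95.5, 229 and 164 CPM in clones 1 to 3 against 109 to 116 CPM in Control (edgeR adjusted p = 0.324). In LYZ as in FCN1, clones 2 and 3 were above every Control line and clone 1 was not. The share of all tested genes with this pattern was not counted, so it is not shown to be particular to these genes. ITGAM, the CD11b integrin chain, was at 5.13, 11.7 and 8.59 CPM in clones 1 to 3 against 2.13 to 5.80 CPM in Control (edgeR adjusted p = 0.241). MMP9, a matrix metalloproteinase of neutrophil granules, was at 0.428, 2.35 and 0.926 CPM in clones 1 to 3 and at 1.02, 8.11 and 6.93 CPM in Control lines 1 to 3 (log2 difference -2.12 ± 0.79 SE; adjusted p = 0.237 in edgeR). CHI3L1, a chitinase-like protein, was at 1.497, 0 and 2.02 CPM in clones 1 to 3 and at 1.79, 7.03 and 7.10 CPM in Control lines 1 to 3 (edgeR adjusted p = 0.263). For both, Control line 1 was near the clones and Control lines 2 and 3 were above every clone. CSF3R, the receptor of granulocyte colony-stimulating factor, was at 56.5, 129 and 139 CPM in the clones against 69.1 to 115 CPM in Control (edgeR adjusted p = 0.664). CAMP, LTF and LCN2, secondary granule genes of neutrophils, were not tested, and LTF and LCN2 had no row.

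Receptors for extracellular S100 proteins were partly present. Of 10 genes 6 were tested, with 0 edgeR and 0 DESeq2 calls and a median log2 fold change of 0.26; NPTN alone reached an unadjusted p under 0.05, as higher, where 9.23% of all tested genes did. BSG, or basigin, the most abundant, was at 435 to 605 CPM in the clones and 419.9 to 516 CPM in Control (edgeR adjusted p = 0.478). NPTN, or neuroplastin, a receptor reported for S100A8, was at 66.6, 122 and 97.9 CPM in clones 1 to 3 against 60.0 to 63.7 CPM in Control (log2 difference 0.62 ± 0.20 SE; adjusted p = 0.200 in edgeR; DESeq2 adjusted p = 0.0707). CD33 was at 59.3 to 76.3 CPM in the clones against 72.1 to 72.2 CPM in Control (edgeR adjusted p = 0.914). CD14 and LY96, co-receptors of TLR4, had at most 4 and 7 counts in any library and were not tested.

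Intracellular partners of S100 proteins were mostly even. Of 18 genes 15 were tested, with 0 edgeR calls and a median log2 fold change of 0.09; HLTF reached an unadjusted p under 0.05 as lower, as did 8.6% of all tested genes. The 1 DESeq2 call was HLTF, as lower, where 2.07% of all genes with a DESeq2 adjusted p were called lower. HLTF encodes a chromatin remodelling factor that binds the S100A10 and annexin A2 complex. It was at 118, 96.3 and 114 CPM in clones 1 to 3 against 143, 182 and 151 CPM in Control lines 1 to 3, with no overlap (log2 difference -0.54 ± 0.13 SE; adjusted p = 0.171 in edgeR; DESeq2 adjusted p = 0.0197). Every clone lay below every Control line for 11.7% of all tested genes. MYH9 was at 576 to 626 CPM in the clones and 516 to 613 CPM in Control (edgeR adjusted p = 0.723). ANXA6 and CACYBP, the other 2 most abundant partners, differed by -0.07 (SE 0.09) and 0.13 (SE 0.10) on the log2 scale.

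Of 13 further genes named for S100, the binding protein S100PBP among them, 6 had a row and 3 were tested; 0 passed in edgeR or DESeq2. S100PBP was at 47.8 to 50.2 CPM in the clones against 57.6 to 59.9 CPM in Control, with no overlap (log2 difference -0.26 ± 0.09 SE; adjusted p = 0.217 in edgeR). Such a lack of overlap, with the clones below, was found for 11.7% of all tested genes. S100B, a member on chromosome 21 best known from glia, was at 1.497, 4.84 and 6.40 CPM in clones 1 to 3 and at 2.89, 1.16 and 0.953 CPM in Control lines 1 to 3 (edgeR adjusted p = 0.291), so that Control line 1 lay above clone 1. S100A1 was at 2.99 to 4.31 CPM in the clones and 2.75 to 3.73 CPM in Control (edgeR adjusted p = 0.741). Of 7 fused-type genes, large epidermal proteins with an S100 head, 1 had a row (TCHH, at most 1.07 CPM).

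Among 23 other EF-hand genes, all tested, 0 passed in edgeR, the median log2 fold change stood at -0.03, and an unadjusted p under 0.05 was reached by 3 as higher and by 5 as lower, against 9.23% and 8.6% of all tested genes. Of all genes with a DESeq2 adjusted p, 1.91% were called higher and 2.07% lower. STIM2, a calcium sensor of the endoplasmic reticulum, was the 1 DESeq2 call, at 19.0 to 23.3 CPM in the clones against 12.5 to 15.7 CPM in Control (log2 difference 0.67 ± 0.16 SE; adjusted p = 0.171 in edgeR; DESeq2 adjusted p = 0.0277). The most abundant, LCP1 (1844 to 2648 CPM in the clones), EFHD2 (525 to 552 CPM) and CALM3 (439.6 to 490.1 CPM), differed by 0.11 (SE 0.14), 0.21 (SE 0.09) and -0.06 (SE 0.09) on that scale.

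Neighbours on chromosome 1 were sought only among genes lying wholly between S100A10 and S100A13. No flank was added there, unlike the 1 Mb taken around S100P, so the 2 counts are not comparable. S100A1, which overlaps S100A13 and runs past its end, was left out by this rule. Between S100A10 and S100A13 the table held 5 genes that are no members (TCHH, S100A2, S100A3, S100A5 and BX470102.1), and 0 of them had enough counts to be tested. S100A9 and S100A8 lie close together on opposite strands. S100A9 stood at 1.74-fold, 13.3-fold and 4.82-fold of the Control mean in clones 1, 2 and 3. S100A8 stood at 0.971-fold, 2.36-fold and 1.31-fold there, from 21, 48 and 24 counts. Within 1 Mb of S100P 16 other genes had a row and 14 were tested, with 0 edgeR calls and a median log2 fold change of 0.0027. The 1 DESeq2 call there was MAN2B2, a lysosomal mannosidase, lower in the clones at 85.8 to 103 CPM against 126 to 131 CPM (log2 difference -0.47 ± 0.10 SE; adjusted p = 0.167 in edgeR; DESeq2 adjusted p = 0.0145). Of all genes with a DESeq2 adjusted p, 1.91% were called higher and 2.07% lower.

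S100A9 was also the 1 member whose log2 CPM ranged by at least 2, so the genes most like it in pattern were looked up among 12956 other genes whose mean reached 2 CPM. Over the 6 libraries of this line, SEPHS2, CSRP1 and CYP27B1 (Pearson r = 0.99 for each) were closest. SEPHS2, a selenophosphate synthetase gene, was at 156 to 160.2 CPM in Control and at 172, 204 and 187 CPM in clones 1 to 3. CYP27B1, the enzyme that activates vitamin D, was at 2.55 to 2.69 CPM in Control and at 3.71, 6.81 and 4.72 CPM in clones 1 to 3. Each shares with S100A9 the order clone 2, clone 3, clone 1, Control, over a far smaller range. They were picked for this likeness, so the shared order is no separate result. CEBPB ranked 12 in likeness (r = 0.98) and was looked up after its values had been seen.

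**Figure D3:**
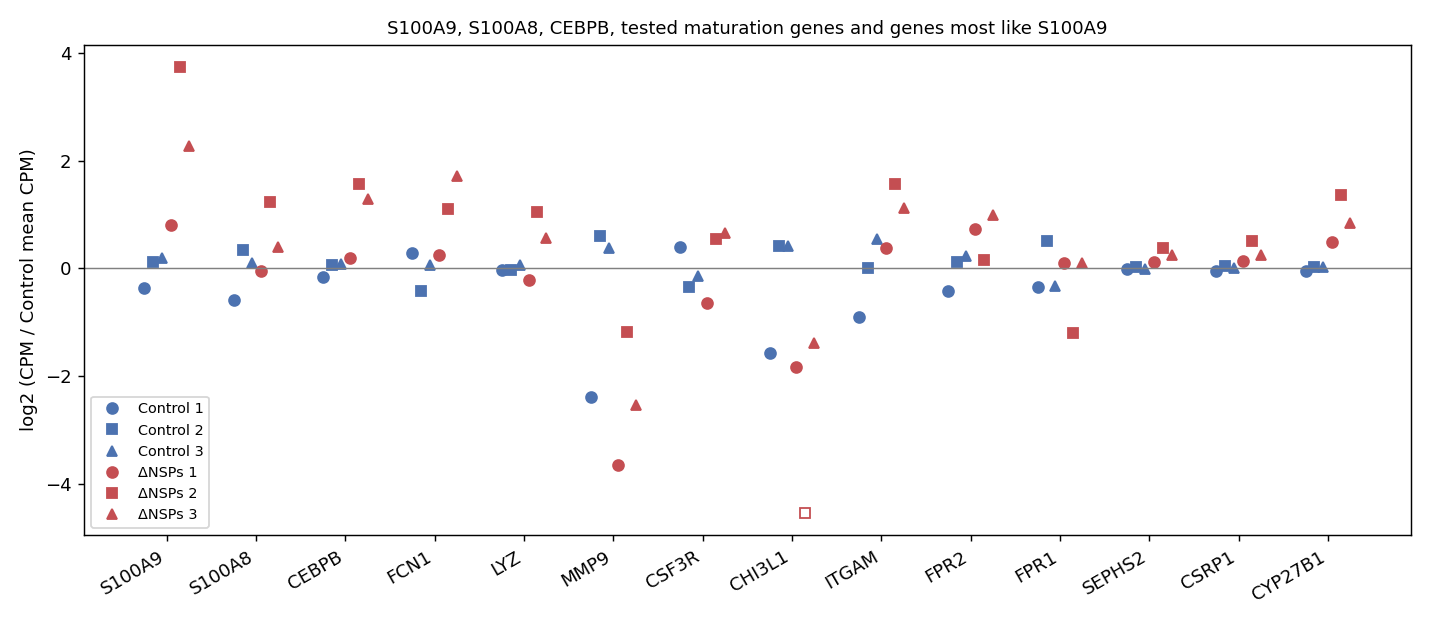
The y axis gives log2 of the CPM in each library over the mean of the Control lines, for S100A9, S100A8, CEBPB, all 8 tested maturation genes and the 3 genes picked for their likeness to S100A9 (x axis); Control libraries are blue, ΔNSPs clones red, the symbol marks the replicate, and an open symbol is a library under 3 counts, drawn at 3 counts. Clones 2 and 3 lie above every Control line for S100A9, S100A8, CEBPB, FCN1, LYZ, CSF3R and ITGAM as well as the 3 picked genes, but not for FPR1 or FPR2, and for MMP9 and CHI3L1 every clone lies below Control lines 2 and 3. The share of all tested genes with clones 2 and 3 above every Control line was not counted, and the 3 picked genes follow S100A9 by choice. For S100A8, clone 3 (2.02 CPM, 24 counts) is close to Control line 2 (1.96 CPM, 27 counts).

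The S100A9 difference kept its sign in all 14 alternative analyses, with log2 fold changes between 1.71 and 3.17, and passed the threshold in 2 of them.

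**Figure D4:**
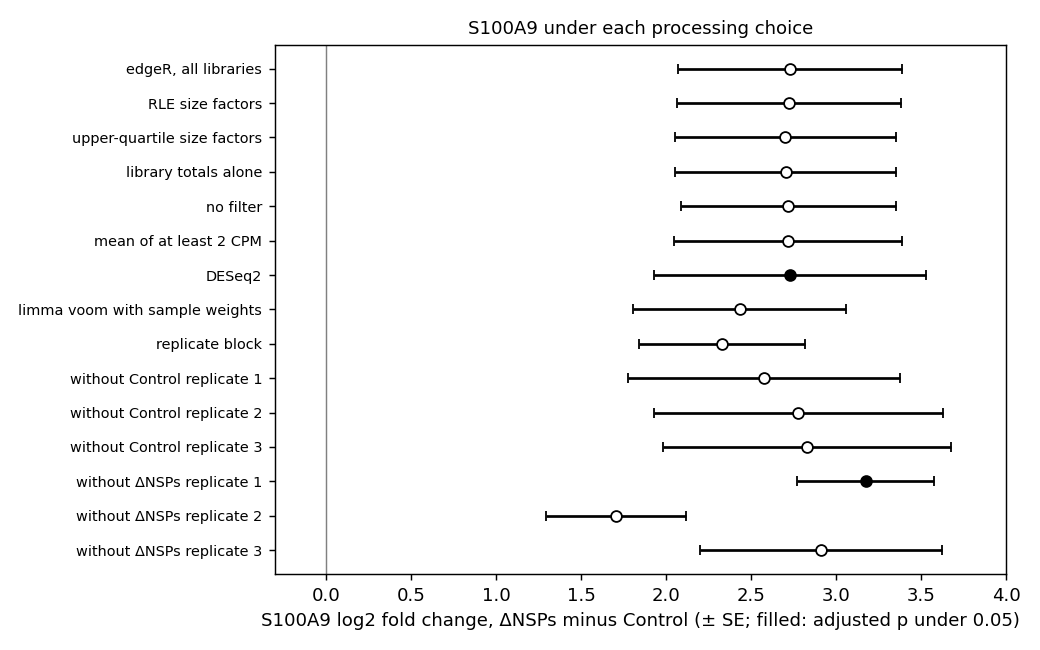
The x axis gives the log2 fold change of S100A9, ΔNSPs minus Control, with bars of ± 1 SE, under each analysis named on the y axis; filled points had an adjusted p under 0.05. The values run from 1.71 without ΔNSPs replicate 2 to 3.17 without ΔNSPs replicate 1, and the filled points are DESeq2 and the analysis without ΔNSPs replicate 1.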

How the data were processed

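RNA-seq counts of 6 U937 libraries were used. The authors deposited whole-number counts per Ensembl gene, not normalized; HTSeq 0.11.1, HISAT2 2.0.0, SAMtools 1.5.9, FastQC and build GRCh38.p12 are named in the submitters' processing notes. For annotation release and strand, the setting is not given in the sources used here, so reads from overlapping genes on opposite strands may have been set aside or misassigned. GENCODE v29 gave symbols for 18771 of 18798 genes.

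Groups were compared with edgeR 4.0.16 in R 4.3.3 (TMM factors, filterByExpr, quasi-likelihood test, two-sided, Benjamini-Hochberg over 14797 genes, threshold 0.05). DESeq2 1.42.0, limma 3.58.1 (voom), other size factors and filters, a replicate block and leaving out each library were alternatives. The edgeR procedure was tested on simulated data. SEs are the fold change over the root of the F statistic; log2 CPM used a prior count of 2. Replicates of a group differed beyond sampling noise (chi-square per degree of freedom 7.65 or more).

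All members were named, and from each list any edgeR or DESeq2 call plus the 3 genes of highest mean CPM; others named were chosen after their values were seen. The members and lists were chosen with earlier results of these data known. Promoter windows are RefSeq's (GRCh38.p14), matched by symbol for all 9 members. Protein sequences were not analysed here. A result for 1 listed gene is not reported here.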

Additional observations from a re-analysis of the deposited data

How the results depend on the processing

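The count of members called was 0 in each direction, except that S100A9 made it 1 higher in DESeq2 and 1 higher in edgeR without ΔNSPs clone 1, so that leaving out libraries gave 0 to 1 higher. Of the 8 members, 7 kept their sign in every alternative that gave a value; a filter at a mean of 2 CPM left S100A8 and S100A13 without one. S100A13 turned, to -0.05 without Control replicate 2 and -0.39 without ΔNSPs replicate 2 (-0.39 to 0.39 when libraries were left out), at 10 to 27 counts a library. Over all genes the count of 3 calls became 515 in DESeq2, 2 in limma voom and 0 with the replicate block, and 0 to 928 when libraries were left out: 928 without clone 1, 1 without clone 3, 20 without Control line 1 and 0 without Control line 2 or 3; the cause was not tested. No protocol says that replicate numbers pair the lines with the clones. Same-numbered deviations from the group mean correlated at -0.43, -0.16 and -0.14, and 0 of 3 Control lines correlated best with their own number. Centring each group of 3 on its own mean ties these correlations together, so they cannot exclude a pairing. With the replicate block S100A9 had a log2 fold change of 2.33 (edgeR adjusted p = 0.405). Over the longest transcript, mean levels moved to 435 RPKM for S100A11, 414 for S100A4 and 376 for S100A6, in the same order. Depth limits S100A8 and S100A13, whose counts were low in every library.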
